A study of Mus musculus with 22 samples.

Results

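The genes described here encode the constant regions of the mouse immunoglobulins and the J chain. They are 7 heavy chain genes (Ighm, Ighd, Ighg3, Ighg1, Ighg2b, Ighg2c and Igha), the light chain genes Igkc and Iglc1, and Jchain. They were chosen by gene symbol, and all 10 were among the 15971 genes listed for lung, whereas 3 of them (Ighm, Igha and Igkc) were among the 12259 genes listed for liver. Poly-A RNA was sequenced from lung (6 libraries of mice kept in air and 6 of mice exposed to benzene) and from liver (5 and 5). All groups were male mice of the C57BL/6J background, 14 weeks old and fed normal chow. The benzene groups inhaled benzene, a volatile aromatic solvent, at 50 ppm, in sessions of 6 hours on 5 days of each week for 6 weeks, and the control groups breathed air passed through carbon and HEPA filters. The labels number the libraries and do not state whether each is a separate animal, so the spread behind the p-values may be technical only.

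An antibody is built from a pair of identical heavy chains and a pair of identical light chains, and the heavy chain constant gene sets its class. A naive B cell makes IgM and IgD from one long transcript by alternative splicing. After activation it can switch, by deleting the DNA in between, to one of the IgG genes or to Igha, which lie downstream, and plasma cells then transcribe the chosen genes at very high levels. The J chain joins secreted IgM and IgA into polymers that epithelial cells can carry onto mucosal surfaces such as those of the airways.

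In the GRCm38 build the 7 heavy chain genes lie in one cluster on the minus strand of chromosome 12, in the order of switching. Ighm is at chr12:113418558-113422730, Ighd at chr12:113406604-113416324, Ighg3 at chr12:113356224-113361232, Ighg1 at chr12:113325240-113330523, Ighg2b at chr12:113302965-113307933, Ighg2c at chr12:113285325-113288932 and Igha at chr12:113254830-113260236. Igkc is at chr6:70726435-70726966 on the plus strand, Iglc1 at chr16:19061618-19062071 on the minus strand and Jchain at chr5:88519809-88527891 on the minus strand. The annotation gives Jchain as a protein-coding gene and the others as immunoglobulin constant genes.

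The ends of the secreted heavy chains show which classes the J chain can join. The last 60 coding bases of each secreted form, without the stop codon, are given here from the GRCm38 genome in the direction of transcription, with the codon for the penultimate cysteine in capitals. That cysteine bonds to the J chain. It is present in Ighm and Igha and in none of the 4 IgG genes.
Ighm: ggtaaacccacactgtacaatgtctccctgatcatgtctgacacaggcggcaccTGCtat
Igha: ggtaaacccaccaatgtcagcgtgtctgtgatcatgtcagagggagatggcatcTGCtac
Ighg3: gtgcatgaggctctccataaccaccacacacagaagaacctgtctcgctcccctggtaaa
Ighg1: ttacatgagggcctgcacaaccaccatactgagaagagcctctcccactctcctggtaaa
Ighg2b: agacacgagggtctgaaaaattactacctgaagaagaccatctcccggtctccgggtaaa
Ighg2c: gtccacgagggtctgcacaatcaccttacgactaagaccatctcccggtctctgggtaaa

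The IgG tails also show how alike the IgG genes are, which bears on how reads were assigned to them. Over their annotated exons, the longest identical run was 88 bases (Ighg3 with Ighg2b), followed among the IgG genes by 78 bases (Ighg2b with Ighg2c), and no run of 150 bases, the length of a read, was shared by any pair of these constant genes. Igkc overlaps the long noncoding RNA gene Gm30211 on the same strand. Iglc1, like the further lambda gene Iglc3, overlaps the noncoding gene 2010309G21Rik of the opposite strand, which is itself in the lung table. The use of strand in counting is not given in the sources used here, and overlap was checked over whole genes rather than exons. Whether reads of Iglc1 or Iglc3 were kept apart from those of 2010309G21Rik is therefore not known.

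Levels below are normalized CPM as the authors head them, that is, read counts divided by 1 factor per library, and means carry their SD. The values of a library sum to 937491 to 1010487 in 11 lung libraries and to 1325414 in lung air replicate 5, so every level of that library is higher than scaling to its total would give. A change is the log2(CPM + 1) level of benzene minus that of air with its SE from limma, with Benjamini-Hochberg adjusted p over all genes tested and a threshold of 0.05, and this scale understates the change of genes near 0. Reads assigned to genes, recovered from the values, numbered 8300876 to 11922169 per library in lung air, 8400760 to 10021189 in lung benzene, 9459912 to 12420430 in liver air and 9705603 to 12710725 in liver benzene. Lung air replicate 5 also stood apart in that 894 genes had no read in it, against 17 to 61 in the other 5 air lungs, so the lung tests of the 10 genes are given with and without it. All 10 alveolar epithelial markers, such as surfactant genes, were listed for lung, and 9 of 10 hepatocyte markers for liver. In bulk RNA, fewer cells of a type and less RNA per cell cannot be told apart.

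In lung, 7 of the 10 genes fell with benzene (Ighm, Igha, Ighg1, Ighg2b, Ighg2c, Igkc and Jchain) and Ighg3 rose. Ighd and Iglc1 missed the threshold. Over all 15706 genes tested, 5.67% were called, 3.38% higher and 2.29% lower. With edgeR 8 of the 10 passed (5.55% of all genes), with DESeq2 9 (10.6%) and with array weights 9 (20.5%). Without air replicate 5, limma called 9, of which 8, Iglc1 among them, fell and 1 rose, where 14.7% of all genes were called, 7.63% higher and 7.02% lower. The benzene libraries lay below every air library for the 7 genes named first and above every air library for Ighg3, against 2.46% and 3.67% of all genes (4.11% and 5.06% without air replicate 5, where the numbers of the 10 were again 7 and 1). The median change of the 10 genes was -1.16, against 0.01 over all genes tested. Their summed level was 1189 to 1595 CPM in the air lungs and 529.7 to 692 in the benzene lungs.

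**Figure D1:**
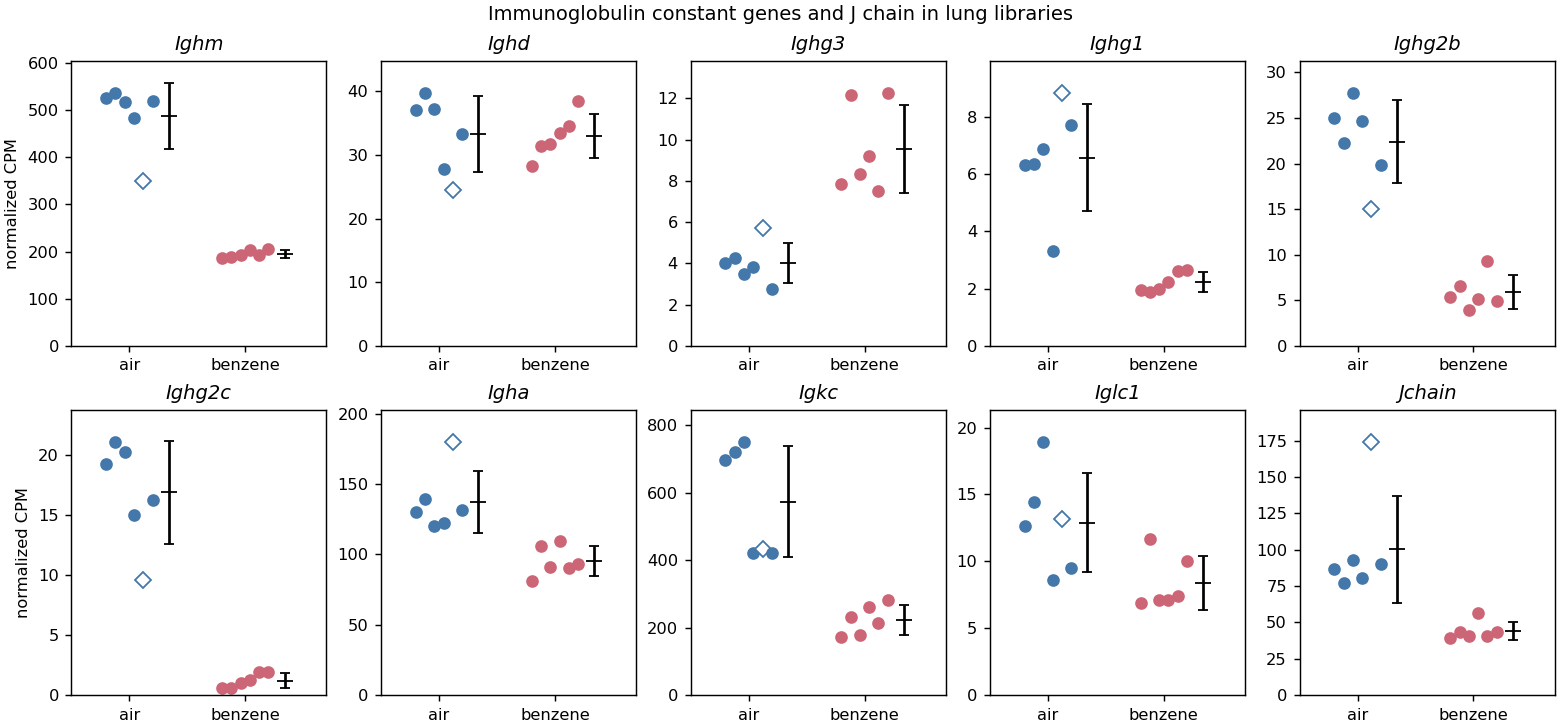
Normalized CPM of each gene in the 6 air (blue) and 6 benzene (red) lung libraries; the open diamond is air replicate 5, and the bar to the right of each group is the mean ± SD. Benzene points lie below all air points for Ighm, Ighg1, Ighg2b, Ighg2c, Igha, Igkc and Jchain and above them for Ighg3, while Ighd and Iglc1 overlap.

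Ighm, the heavy chain of IgM, had the highest level per exon length of the heavy chain genes in every lung library. Its lowest, median and highest levels were 351, 517 and 537 CPM in air and 186, 192 and 205 CPM in benzene. The groups were far apart, and the low air value was replicate 5. The mean went from 489 ± 69.9 to 194 ± 8.29 CPM (n = 6 and 6), which is 2.51-fold lower. On the log2 scale Ighm fell by 1.31 ± 0.101 (limma, adjusted p = 7.39e-07). Leaving out air replicate 5, it fell by 1.40 ± 0.0595 (adjusted p = 3.65e-13).

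Ighd, the IgD heavy chain that naive B cells splice from the same transcript as Ighm, did not pass the threshold. Its levels were 24.4, 35.1 and 39.8 CPM in air (lowest, median, highest) and 28.3, 32.6 and 38.5 CPM in benzene. The groups overlapped almost wholly, and air replicate 5 was again the lowest. The means were 33.3 ± 5.98 and 33.0 ± 3.44 CPM, with a log2 difference of 0.00 ± 0.123 (95% interval -0.26 to 0.27, limma, adjusted p = 0.994). Without air replicate 5 the difference was -0.08 (95% interval -0.28 to 0.12, adjusted p = 0.628). Per exon length, the ratio of Ighm to Ighd ran from 13.6 to 17.5 in the air lungs and from 5.37 to 6.61 in the benzene lungs, with no overlap with or without air replicate 5.

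Ighg3 was the gene that rose. In mice IgG3 is made mainly against carbohydrate antigens that need no T cell help, and Ighg3 is the first IgG gene downstream of Ighd. Its lowest, median and highest levels were 2.78, 3.92 and 5.70 CPM in air and 7.51, 8.77 and 12.3 CPM in benzene. All benzene lungs were above all air lungs, with 27 to 46 reads per air library and 76 to 120 per benzene library. The mean went from 4.01 ± 0.972 to 9.55 ± 2.13 CPM, which is 2.38-fold higher. The log2 change was 1.07 ± 0.166 (limma, adjusted p = 0.00089), and 1.16 ± 0.151 without air replicate 5 (adjusted p = 1.41e-05).

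Ighg2c had the largest fall of the 10 genes. It is the form of IgG2 that C57BL/6 mice carry, and interferon gamma favours switching to it. Its levels were 9.60, 17.7 and 21.1 CPM in air (lowest, median, highest) and 0.589, 1.10 and 1.94 CPM in benzene. Each benzene library held only 5 to 20 reads of it, against 64 to 209 in the air libraries, and the lowest air library, replicate 5, was still well above the highest benzene library. The mean was 14.1-fold lower, 16.9 ± 4.29 against 1.20 ± 0.596 CPM. On the log2 scale Ighg2c fell by 3.03 ± 0.216 (limma, adjusted p = 3.29e-07). With that library left out it fell by 3.17 ± 0.178.

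Ighg2b and Ighg1 fell too. Switching to IgG2b is favoured by TGF-beta and switching to IgG1 by interleukin 4. Ighg2b was at 15.0, 23.4 and 27.8 CPM in air (lowest, median, highest) and at 3.94, 5.29 and 9.29 CPM in benzene. Its mean went from 22.4 ± 4.51 to 5.89 ± 1.87 CPM, 3.81-fold lower, and it fell by 1.78 ± 0.183 on the log2 scale (limma, adjusted p = 1.51e-05). It fell by 1.89 ± 0.155 when air replicate 5 was left out. The highest benzene library stayed below the lowest air library, which was replicate 5.

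Ighg1 was at 3.32, 6.63 and 8.85 CPM in air (lowest, median, highest) and at 1.89, 2.10 and 2.66 CPM in benzene. Here air replicate 5 was the highest library and air replicate 4 the lowest, and the groups did not overlap. The mean went from 6.58 ± 1.86 to 2.22 ± 0.350 CPM on 16 to 75 reads per library. Ighg1 fell by 1.20 ± 0.184 on the log2 scale (limma, adjusted p = 0.000822). It fell by 1.11 ± 0.175 (adjusted p = 0.00015) when air replicate 5 was left out.

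Igha, the heavy chain of the main mucosal antibody, had the smallest change of the genes that passed. Its levels were 119.9, 131 and 180.1 CPM in air (lowest, median, highest) and 81.4, 91.9 and 109.7 CPM in benzene. The groups did not overlap, and the high air value was replicate 5. The mean went from 137 ± 22.1 to 95.2 ± 10.6 CPM, 1.44-fold lower, and Igha fell by 0.52 ± 0.107 on the log2 scale (limma, adjusted p = 0.00968). Without air replicate 5 it fell by 0.44 ± 0.0778 (adjusted p = 0.000591).

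**Figure D2:**
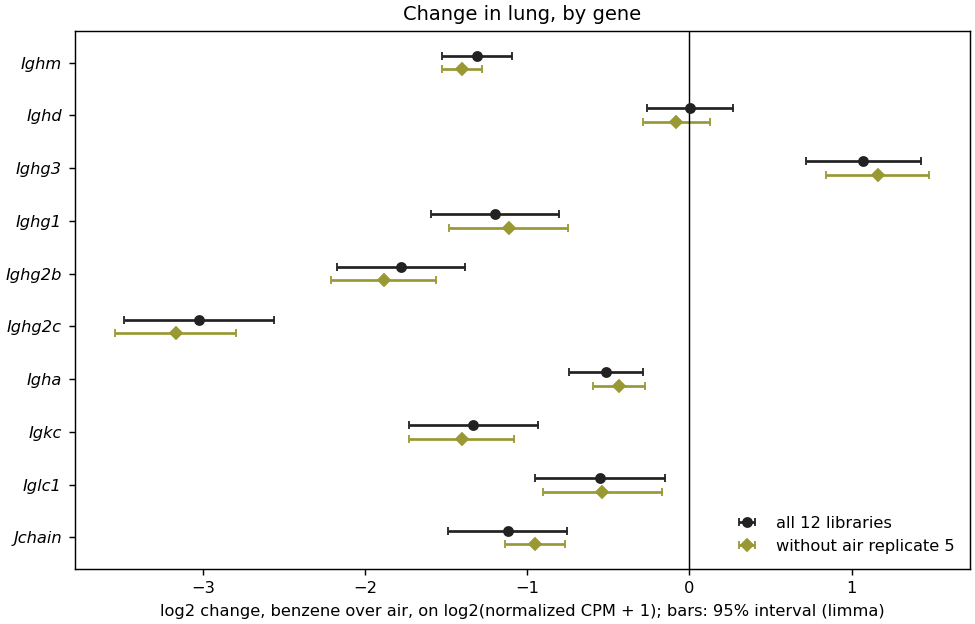
Log2 change of each gene in lung, benzene over air on log2(CPM + 1), with its 95% interval from limma, over all 12 libraries (circles) and without air replicate 5 (diamonds). Ighg2c lies lowest at -3.03, Ighg3 is the gene above 0 at 1.07, and the interval of Ighd spans 0 in both.

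The make-up of the heavy chain RNA was described without a test. With reads divided by exon length, Ighm made up 65.3 to 75.4% of the 7 heavy chain genes in the air lungs and 60.6 to 65.5% in the benzene lungs, and these ranges met only through air replicate 5. Without that library the air range was 73.7 to 75.4%. The share of Ighd ran from 4.31 to 5.42% in air and from 9.92 to 11.7% in benzene, with no overlap. The share of Igha was 20.2 to 24.2% in benzene, above the 12.2 to 13.5% of 5 air lungs, whereas air replicate 5 lay inside the benzene range at 23.7%.

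Within the IgG genes, Ighg2c held 39.1 to 56.1% of the IgG reads per exon length in the air lungs and 5.25 to 15.9% in the benzene lungs. Ighg3 held 4.65 to 12.2% in air and 33.6 to 57.1% in benzene. Neither pair of ranges overlapped, and air replicate 5 gave the highest Ighg3 share and the lowest Ighg2c share of the air lungs. The shares of Ighg2b and Ighg1 overlapped between the groups, at 29.3 to 39.4% and 19.9 to 39.0% for Ighg2b and at 5.49 to 18.4% and 8.59 to 12.1% for Ighg1. The 4 IgG genes together went from 49.9 ± 7.04 to 18.9 ± 2.95 CPM, with no overlap (39.1 to 58.4 and 15.2 to 21.8 CPM). Ighg2c is annotated with 1326 exon bases, against 2512 to 2678 for the other IgG genes, so division by length raises its share. Undivided, the mean of Ighg2b in air was above that of Ighg2c, at 22.4 against 16.9 CPM.

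**Figure D3:**
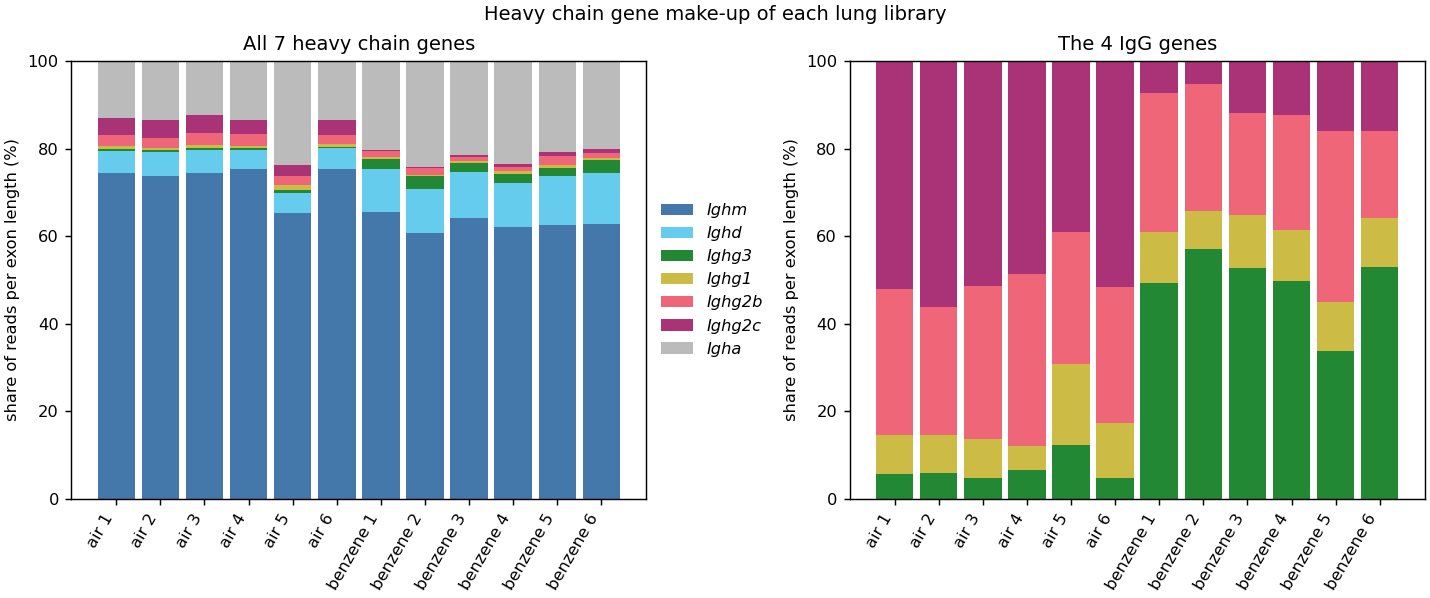
Share of each heavy chain gene, in percent of reads divided by exon length, in each of the 12 lung libraries, over all 7 heavy chain genes (left) and over the 4 IgG genes (right). Ighg3 takes 33.6 to 57.1% of the IgG share in the benzene lungs and 4.65 to 12.2% in the air lungs, and air replicate 5 has the largest Igha share of the air lungs.

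The light chains were led by Igkc, the single constant gene of the kappa chain, which most mouse antibodies carry. Its level in air was 696, 719 and 751 CPM in replicates 1 to 3 and 419.9, 432 and 421 CPM in replicates 4 to 6. In benzene its lowest, median and highest levels were 173, 222 and 281 CPM. The first 3 air libraries lay well above the other 3, and all 6 lay above every benzene library. The mean went from 573 ± 164 to 223 ± 43.8 CPM, 2.57-fold lower. The log2 change of Igkc was -1.33 ± 0.185 (limma, adjusted p = 0.000322), and without air replicate 5 it was -1.40 ± 0.156. The ratio of Igkc to Ighm per exon length ran from 2.88 to 5.15 in air and from 3.27 to 4.85 in benzene, so the groups overlapped.

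Iglc1, a constant gene of the lambda chain, was at 8.62, 12.9 and 18.9 CPM in air (lowest, median, highest) and at 6.84, 7.26 and 11.7 CPM in benzene. The groups overlapped. The means were 12.9 ± 3.71 and 8.36 ± 2.00 CPM, with a log2 difference of -0.55 ± 0.187 that missed the threshold (limma, adjusted p = 0.101). It passed without air replicate 5 at nearly the same difference, -0.54 ± 0.177 (adjusted p = 0.0464). The antisense gene 2010309G21Rik, whose reads may not have been kept apart from those of Iglc1, fell by 0.62 on the log2 scale (limma, adjusted p = 0.0259; by 0.72 without air replicate 5).

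The other lambda constant genes of the table, which are not among the 10, were Iglc2 and Iglc3. Iglc3, which overlaps the same antisense gene, was at 10.1 to 21.9 CPM in air and 4.71 to 7.09 CPM in benzene and fell by 1.20 ± 0.197 (limma, adjusted p = 0.0015; by 1.09 without air replicate 5). Iglc2 was at 5.46 to 9.61 CPM in air and 2.86 to 8.91 CPM in benzene, with a difference of -0.38 (adjusted p = 0.301; -0.33 without air replicate 5). The longest run that Iglc2 and Iglc3 share is 79 bases, shorter than a read. The lambda share of light chain reads per exon length ran from 4.75 to 10.3% in air and from 6.91 to 10.9% in benzene, which overlap, although without air replicate 5 the air range ended at 6.85%.

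Jchain, the joining chain of polymeric IgM and IgA, fell. Its lowest, median and highest levels were 77.3, 88.5 and 174 CPM in air and 39.1, 42.0 and 56.4 CPM in benzene. The highest air library was replicate 5, and the groups did not overlap with or without it. The mean went from 100.3 ± 36.7 to 44.0 ± 6.33 CPM, 2.28-fold lower, and Jchain fell by 1.12 ± 0.172 on the log2 scale (limma, adjusted p = 0.000798). Without air replicate 5 the fall was 0.95 ± 0.0891 (adjusted p = 1.15e-07). The ratio of Jchain to Igha per exon length ran from 0.589 to 1.03 in air (to 0.822 without replicate 5) and from 0.437 to 0.545 in benzene, without overlap. The ratio of Jchain to Ighm ran from 0.108 to 0.372 in air and from 0.158 to 0.207 in benzene. These ranges overlapped only through air replicate 5, without which the air range ended at 0.135, below every benzene lung.

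Divided by exon length, the 10 genes spanned a wide range of levels. Igkc was highest in both groups, at 1077 ± 309 CPM per kilobase in air and 418 ± 82.3 in benzene, followed by Ighm at 259 ± 37.1 and 103 ± 4.39, and neither gene overlapped the one ranked next. In air the order went on as Igha (51.4 ± 8.30), Jchain (39.8 ± 14.6), Iglc1 (28.4 ± 8.17), Ighd (17.5 ± 3.15), Ighg2c (12.8 ± 3.24), Ighg2b (8.37 ± 1.68), Ighg1 (2.54 ± 0.717) and Ighg3 (1.60 ± 0.387). From Igha down to Ighg2b each gene overlapped its neighbour, as did Ighg1 and Ighg3. In benzene Igha (35.7 ± 3.97) stood clear of the next genes, and Iglc1 (18.4 ± 4.42), Jchain (17.5 ± 2.51) and Ighd (17.4 ± 1.81) overlapped each other. There Ighg3 was seventh at 3.80 ± 0.850, overlapping Ighg2b (2.20 ± 0.700), and Ighg2c (0.908 ± 0.449) and Ighg1 (0.856 ± 0.135) came last. Exon lengths are those of all annotated exons, secreted and membrane forms together, and range from 454 bases for Iglc1 to 2678 for Ighg2b. Ighg2c has 1326, against 2512 to 2678 for the other IgG genes, and its rank above Ighg2b in air rests on that length.

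The antibody chains also hold a variable segment, encoded upstream of the constant gene. The 52 variable segments listed for lung summed to 137 to 198 CPM in 5 air lungs and to 79.9 to 97.6 CPM in the 6 benzene lungs. Air replicate 5 stood below all of them at 12.6 CPM, although its constant genes were at the levels given above.

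Other genes that make, move and switch antibodies were counted in the same lung fit. Of 19 plasma cell genes tested, 1 fell and none rose, with a median change of -0.14. At an unadjusted p under 0.05 by limma, 2 of them were higher and 6 lower. Of 26 B cell identity genes 1 fell and none rose, with a median of -0.13 (0 higher and 6 lower unadjusted). Of 12 survival and homing genes 2 fell and none rose, with a median of -0.06 (0 higher and 3 lower unadjusted). None of 8 antibody transport and Fc receptor genes passed by limma (1 higher and 1 lower at an unadjusted p under 0.05; 1 lower by edgeR and 1 lower by DESeq2), and none of 13 class switch and germinal centre genes did (2 higher and 1 lower unadjusted; 0 by edgeR and 1 lower by DESeq2). Over all genes tested, 12% were higher and 10.2% lower at an unadjusted p under 0.05, and 3.38% and 2.29% at the adjusted threshold. The B cell identity list summed to 413 to 516 CPM in air and 372 to 406 in benzene. The survival and homing list summed to 492 to 533 CPM in air and 442 to 473 in benzene. Neither list overlapped between the groups, whereas the sums of the plasma cell, transport and class switch lists did. Without air replicate 5, 2 plasma cell genes rose and 2 fell, 3 B cell genes fell, 2 transport genes fell, 3 survival and homing genes fell and no class switch gene passed (2 higher and 2 lower unadjusted). With DESeq2 over all 12 libraries, 2 plasma cell genes rose and 3 fell, 3 B cell genes fell and 3 survival and homing genes fell. Of all genes tested, 7.63% were called higher and 7.02% lower without air replicate 5, and DESeq2 called 10.6% in either direction.

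The members of these lists that passed were Creld2, Cd79a, Cxcl13 and Tgfb1. Creld2, a chaperone of the endoplasmic reticulum where antibody chains fold, went from 64.4 ± 4.39 to 43.2 ± 4.00 CPM and fell by 0.57 ± 0.0819 (limma, adjusted p = 0.000452). Cd79a, a signalling chain of the B cell receptor, went from 57.8 ± 11.6 to 42.1 ± 3.43 CPM and fell by 0.43 ± 0.115 (adjusted p = 0.0414). Cxcl13, the chemokine that draws B cells into follicles, went from 11.7 ± 0.889 to 7.74 ± 1.22 CPM (adjusted p = 0.0126), and Tgfb1, the cytokine that favours switching to IgA and IgG2b, from 100.3 ± 7.61 to 79.0 ± 5.18 CPM (adjusted p = 0.0148). All 4 passed without air replicate 5 as well, with log2 changes of -0.55 for Creld2, -0.34 for Cd79a, -0.55 for Cxcl13 and -0.32 for Tgfb1.

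Several defining genes of these cells missed the threshold in lung. Which cells of the bulk lung their RNA came from was not determined. The changes of the 19 plasma cell genes tested ran from -0.68 for Mzb1 to 0.48 for Prdm1. Xbp1, the transcription factor of the secretory programme, was at 237 ± 23.3 CPM in air and 215 ± 11.1 in benzene (limma, adjusted p = 0.309). Prdm1, the factor that drives plasma cell fate, was at 8.28 ± 1.87 and 11.8 ± 0.934 CPM, a difference of 0.48 (adjusted p = 0.0608; 0.38 and 0.0342 without air replicate 5). Mzb1, a chaperone of B and plasma cells, was at 15.6 ± 8.98 and 8.58 ± 2.06 CPM, with the highest air library at 33.0 and a difference of -0.68 (adjusted p = 0.139; -0.45 and 0.0646 without air replicate 5).

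Sdc1, a surface marker of plasma cells and epithelia, was at 248 ± 38.5 and 258 ± 20.8 CPM in air and benzene (limma, adjusted p = 0.722). Pigr, the receptor that carries J-chain-containing antibodies across epithelium, was at 73.2 ± 14.7 and 51.6 ± 6.55 CPM, a difference of -0.48 (adjusted p = 0.0512; -0.57 and 0.001 without air replicate 5). Fcgrt, the neonatal Fc receptor, differed by -0.16 (adjusted p = 0.351) and Tnfsf13b, the survival factor BAFF, by -0.10 (adjusted p = 0.525). Xbp1 (adjusted p = 0.333), Sdc1 (0.938), Fcgrt (0.448) and Tnfsf13b (0.475) also missed the threshold without air replicate 5.

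**Figure D4:**
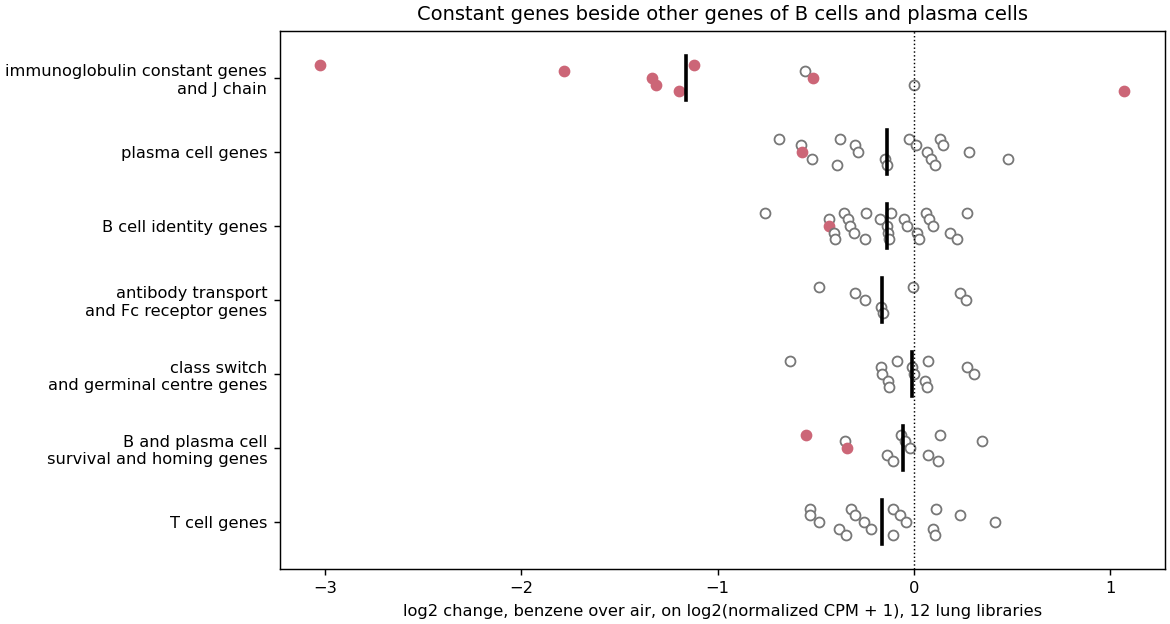
Log2 change in lung, benzene over air on log2(CPM + 1) over 12 libraries, for each tested gene of the constant gene set and of 6 other lymphocyte lists; filled points passed an adjusted p of 0.05 and the vertical bar is the median of the list. The constant genes and Jchain have a median of -1.16, against -0.14 for plasma cell genes and -0.13 for B cell genes.

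Genes of other tissues differed between the same lung libraries. Of 19 squamous epithelium genes tested 18 rose, and the list summed to 348 to 448 CPM in air and 4549 to 4957 in benzene. Of 18 skeletal muscle genes 2 rose and 11 fell (2794 to 4955 CPM in air and 1893 to 2287 in benzene), and of 14 cardiac muscle genes 1 rose and 9 fell (2197 to 3042 and 1301 to 1624). Of 12 adipocyte genes none rose and 4 fell (1031 to 1346 and 901 to 1040.3). The same counts without air replicate 5 were 18 squamous genes higher, 2 skeletal muscle genes higher and 13 lower, 1 cardiac gene higher and 13 lower, and 5 adipocyte genes lower, and the skeletal muscle sum in air ended at 3022 CPM. No marker of these lists that the table holds was at 0 in every library. The table left little room for that, as 13 of its 15971 genes had no read in lung benzene replicate 5. The squamous markers Krt6a, Krt1 and Ivl were not listed for lung. None of 18 T cell genes passed by limma (4 lower at an unadjusted p under 0.05; 0 by edgeR, 1 lower by DESeq2 and 2 lower without air replicate 5), and their sum ran from 122 to 156 CPM in air and from 106 to 128 in benzene. Of all genes tested, limma called 3.38% higher and 2.29% lower, and 7.63% and 7.02% without air replicate 5. DESeq2 called 10.6% in either direction, and 10.2% were lower at an unadjusted p under 0.05 by limma. The part of these tissues in the changes of the constant genes was not tested.

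The genes outside the immunoglobulins whose lung levels were most like 4 of the 10 were sought. Likeness was Pearson's r of deviations from the group means over the 11 lung libraries without air replicate 5, among 15706 genes tested. Ighm was most like Ppid (r = 0.95), Pth1r (0.92) and Dusp22 (0.91), and Igha most like Gm17134 (0.95), Ccpg1 (0.94) and Ssbp1 (0.94). Igkc was most like Mfap5 (0.99), Gm15500 (0.98) and Ssb (0.98), and Jchain most like Klhdc9 (0.93), Ip6k2 (0.92) and Trpv4 (0.92). These are the highest values among 15706 genes over only 11 libraries, so r this high can arise by chance. Whether they exceed chance was not tested. A further r was taken over all 12 lung libraries without removing the group means, so the difference between air and benzene enters it. It was -0.0044, 0.52 and -0.58 for the 3 genes of Ighm and 0.94, 0.77 and 0.81 for those of Igha. For those of Igkc it was 0.89, 0.64 and 0.45, and for those of Jchain 0.96, 0.37 and 0.96, in the same order. The measures differ in the group means as well as in air replicate 5. The part of that library in r was therefore not tested. The 20 genes most like each of the 4 held 0 variable segments.

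In liver the members were near the lower end of what was measured, with 6 to 92 reads per library. None of the 3 passed the threshold by limma, edgeR or DESeq2, which called 1.55%, 1.65% and 2.66% of 11968 genes, and 2 were higher at an unadjusted p under 0.05, as were 6.17% of all genes. Ighm was at 4.30, 6.37, 4.73, 4.81 and 5.15 CPM in the air livers and at 7.01, 6.67, 7.18, 7.78 and 6.61 CPM in the benzene livers. Every benzene liver was above every air liver, as for 2.07% of all genes. The means were 5.07 ± 0.788 and 7.05 ± 0.471 CPM (n = 5 and 5), a log2 difference of 0.41 ± 0.136 (limma, adjusted p = 0.176).

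Igkc was at 2.19, 4.64, 4.32, 2.77 and 3.95 CPM in the air livers and at 4.65, 4.65, 6.87, 6.05 and 3.82 CPM in the benzene livers. The groups overlapped, with a log2 difference of 0.45 ± 0.191 (95% interval 0.05 to 0.85, limma, adjusted p = 0.308). Igha was at 0.526, 1.94, 1.23, 0.816 and 0.827 CPM in air and at 1.71, 0.698, 1.56, 1.21 and 1.55 CPM in benzene. Those values overlapped widely, with a difference of 0.20 ± 0.222 (95% interval -0.27 to 0.67, adjusted p = 0.775).

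**Figure D5:**
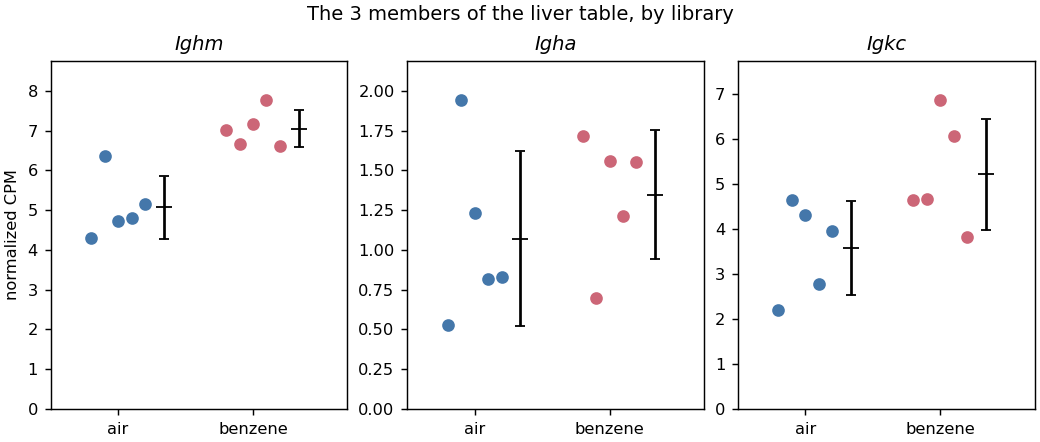
Normalized CPM of Ighm, Igha and Igkc in the 5 air (blue) and 5 benzene (red) liver libraries, with the mean ± SD to the right of each group. The benzene livers lie above all air livers for Ighm (6.61 to 7.78 against 4.30 to 6.37), and the groups overlap for Igha and Igkc.

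The related genes of liver gave 2 calls by limma. Bcl6, a repressor that germinal centre B cells need and that hepatocytes also express, went from 37.6 ± 5.39 to 15.8 ± 1.05 CPM and fell by 1.19 ± 0.106 (limma, adjusted p = 4.18e-06). Sdc1, which hepatocytes also express, went from 227 ± 13.7 to 179 ± 11.2 CPM and fell by 0.34 (adjusted p = 0.014). They were 1 of 11 class switch and germinal centre genes and 1 of 12 plasma cell genes tested there. None of 8 antibody transport and Fc receptor genes passed there by limma, with a median change of 0.27. Of these 8 genes, 1 was higher by edgeR and 2 were higher by DESeq2. Of all liver genes tested, 1.55% were called by limma, 1.65% by edgeR and 2.66% by DESeq2. Pigr was at 992 ± 53.5 CPM in air and 1001 ± 112 in benzene (adjusted p = 0.984).

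The responses of Ighm and Igkc differed between the tissues. In one model over the 11266 genes tested in both, of which 1.41% were called, the liver response minus the lung response was 1.73 ± 0.140 for Ighm (95% interval 1.44 to 2.02, limma, adjusted p = 2.58e-08) and 1.78 ± 0.269 for Igkc (adjusted p = 0.000387). Without lung air replicate 5 these were 1.82 and 1.86. For Igha the difference of 0.72 ± 0.214 missed the threshold (95% interval 0.27 to 1.16, adjusted p = 0.113). The tables of the tissues were normalized separately, so their levels are not compared. The model takes all libraries as independent, and the labels do not say whether liver and lung came from the same mice.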

How the data were processed

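The deposited tables hold 1 normalized signal per gene and library, headed CPM by the authors. Per the submitters' processing notes, fastp 0.20.0, STAR and edgeR 3.10 were used with GRCm38, while no counter, annotation or filter is given in the sources used here. Of the values, 100% equal whole reads times 1 factor per library within a tolerance of 0.01, and edgeR on those reads called 871 lung and 197 liver genes. The tables turned out not to hold raw counts, so the planned test for normalized values was used.

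Symbols were matched to the GENCODE annotation of GRCm38. Genes at 1 or more in 6 lung or 5 liver libraries entered two-sided limma-trend fits of log2(value + 1) (limma 3.58.1 under R 4.3.3), with p-values adjusted after Benjamini-Hochberg. The difference between tissues was a contrast in 1 model. Alternatives were other scalings, a pseudocount of 0.1, no filter, edgeR 4.0.16, DESeq2 1.42.0, array weights, a replicate block and leaving out each library. The 10 genes and all lists were chosen with earlier results of these data known. Named besides the 10 are the genes of 5 lists on antibody production with the largest changes past the threshold (up to 3 a tissue), 10 genes whatever their result (2 of them are not reported here), and the 3 genes most like each of Ighm, Igha, Igkc and Jchain. 2010309G21Rik, Iglc2 and Iglc3 were added after their values were seen. On simulated lung data of 15706 genes, the share called by limma was 72% at a 2-fold change and 26% at a 1.5-fold change. Reads carry no molecular identifiers. Python 3.11.15 with pandas 2.3.3 made the tables.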

Additional observations from a re-analysis of the deposited data

Results flagged for a closer look

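Each gene in each group of libraries made 1 set, and the sets share libraries, so they are not independent. In 26 such sets checked for 1 value far from the others, 4 were found, where chance gives about 1 in 20 independent sets. Lung air replicate 5 gave 3 of them: Ighm was lowest there at 351 CPM, against 484 to 537 in the other air lungs, while Igha was highest at 180.1 (119.9 to 139) and Jchain highest at 174 (77.3 to 93.0). In the benzene lungs, Jchain was highest in replicate 4 at 56.4 CPM, against 39.1 to 43.6 in the others. The responses of 2 genes differed between the tissues in a test of the difference itself: the liver response minus the lung response was 1.73 for Ighm and 1.78 for Igkc (limma, adjusted p = 2.58e-08 and 0.000387). The part of the library itself in these values was not tested.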

How the results depend on the processing

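The count of the 10 genes past the threshold in lung was 8, and 7 to 9 over all alternatives; it was 9 with DESeq2, with array weights and without air replicate 5, and the gene added was Iglc1 (adjusted p = 0.0445, 0.018 and 0.0464). Ighm, Ighg1, Ighg2b, Ighg2c, Ighg3, Igkc and Jchain kept their direction and stayed past the threshold in all 20 lung alternatives. The count of all lung genes called was 891, and it was 1669 with DESeq2, 3215 with array weights and 587 to 2302 leaving out 1 library. In liver the 186 became 318 with DESeq2, 461 with array weights and 99 to 271 leaving out 1 library. For the difference between tissues the 159 became 377, 507 and 89 to 328; Igha passed there with array weights (adjusted p = 0.0259) and without liver air replicate 2 or benzene replicate 2 (0.0319 and 0.044). Scaling to library totals moved the median lung change to 0.12 and the split of calls from 531 higher and 360 lower to 732 and 221. The log2 change of Ighd in lung, near 0, turned to -0.0168 with edgeR, -0.0140 with DESeq2, -0.0696 with array weights and ran from -0.0799 to 0.0562 over the libraries left out. The causes were not tested.

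The labels do not say whether replicate numbers pair the libraries. Deviations from the group means in same-numbered air and benzene libraries correlated at -0.364 to 0.098 in lung and -0.131 to 0.193 in liver. Such low values cannot exclude pairing. With a replicate block, 414 lung genes, 146 liver genes and 59 differences between tissues were called, and 7 of the 10 genes in lung, where Igha had an adjusted p of 0.0552. Counting error limits the liver values of Igha, which rest on 6 to 21 reads per library.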
